A study of Mus musculus with 16 samples.

Results

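Interferon-stimulated genes are described here in C2C12 myotubes that had been exposed to mouse serum. The set was 9 genes taken by symbol from a table of 24346 gene rows: Isg15, Irf9, Ddx58, Ifih1, Stat2, Irf7, Irf1, Bst2 and Ifi35. All 9 symbols were found once each, and 7 had a mean of at least 0.5 FPKM over the 16 libraries and entered the test, with 11802 genes in all. FPKM is a fragment count scaled by transcript length and by the mapped fragments of the library. Ifih1 and Irf7 lay under that filter, with means of 0.161 and 0.293 FPKM.

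C2C12 is a mouse myoblast line that fuses into multinucleate myotubes when serum is reduced. Differentiated myotubes were kept for 24 hr in serum from mice, and poly-A RNA was sequenced. The sera came from Bmal1hep-/- mice, which lack the clock activator Bmal1 in the liver, or from wild-type (WT) mice, at zeitgeber time 4 (ZT4, by day) or 16 (ZT16, by night). The 4 groups were Bmal1hep-/- ZT4 serum, WT ZT4 serum, Bmal1hep-/- ZT16 serum and WT ZT16 serum, with 4 libraries each. Only the serum donors carried the deletion: the labels give the myotubes of all 4 groups as the same line and record no deletion in them. Bmal1 (Arntl in the table) was read in the myotubes at a mean FPKM of 5.93 ± 1.21 under Bmal1hep-/- ZT4 serum, 6.31 ± 1.62 under WT ZT4 serum, 5.07 ± 0.964 under Bmal1hep-/- ZT16 serum and 5.35 ± 0.365 under WT ZT16 serum (SD, n = 4 each). The age and sex of the donors, any pooling of sera and any group without mouse serum were not analysed here.

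Type I interferons bind the receptor chains Ifnar1 and Ifnar2, whose kinases Jak1 and Tyk2 phosphorylate STAT proteins, Stat2 among them. Stat2 and Irf9 are subunits of ISGF3, the complex that binds interferon-stimulated response elements (ISRE) in the promoters of target genes. GAS elements are the usual promoter sites of the interferon gamma response. Cytosolic RNA sensors such as Ddx58 (RIG-I) and Ifih1 (MDA5) lead to interferon production and are themselves induced by interferon, as are Stat2, Irf9 and Irf7, so the system holds positive feedback.

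The windows around the RefSeq start sites were searched on both strands for ISRE letters (GAAA and, after any 2 bases, GAAA again) and for GAS letters (TTCNNNGAA). ISRE letters occurred in 5 of the 9 genes (Isg15, Bst2, Ddx58, Ifih1 and Stat2), against 3.99% of 27025 genes with such a window (3.44% of 32851 windows). GAS letters occurred in 3 of the 9 (Irf1, Bst2 and Ifi35), against 9.55% of those genes (8.30% of windows). Irf9 and Irf7 held neither, which says only that these letters were not in those windows. The 9 genes had 11 windows, each of 300 bases. The windows below are from RefSeq, build GRCm38.p6, 5′ to 3′ on the strand of the gene, with the matched letters in capitals. Isg15, Ddx58 and Stat2 are shown because their levels are compared below and they hold ISRE letters, Bst2 because its match of both kinds overlaps, and Irf1 because it holds GAS letters alone.
Isg15, chr4:156200769-156201068, minus strand: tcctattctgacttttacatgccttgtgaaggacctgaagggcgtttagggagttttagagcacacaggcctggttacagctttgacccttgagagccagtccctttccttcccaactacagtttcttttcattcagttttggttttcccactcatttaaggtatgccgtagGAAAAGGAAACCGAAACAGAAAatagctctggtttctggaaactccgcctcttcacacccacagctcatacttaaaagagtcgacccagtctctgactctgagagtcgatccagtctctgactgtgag
Ddx58, chr4:40239776-40240075, minus strand: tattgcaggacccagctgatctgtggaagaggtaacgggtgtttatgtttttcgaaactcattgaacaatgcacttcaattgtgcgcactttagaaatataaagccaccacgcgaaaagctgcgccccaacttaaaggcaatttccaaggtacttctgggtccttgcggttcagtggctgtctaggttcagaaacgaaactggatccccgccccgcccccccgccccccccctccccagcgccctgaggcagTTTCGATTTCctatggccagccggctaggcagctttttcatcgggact
Stat2, chr10:128270248-128270547, plus strand: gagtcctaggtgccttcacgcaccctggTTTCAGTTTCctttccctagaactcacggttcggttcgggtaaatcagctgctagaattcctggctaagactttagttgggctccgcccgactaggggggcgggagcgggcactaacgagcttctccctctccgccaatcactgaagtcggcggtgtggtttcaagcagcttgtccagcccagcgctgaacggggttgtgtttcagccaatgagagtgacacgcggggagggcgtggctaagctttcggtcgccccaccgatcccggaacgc
Bst2, chr8:71537423-71537722, minus strand: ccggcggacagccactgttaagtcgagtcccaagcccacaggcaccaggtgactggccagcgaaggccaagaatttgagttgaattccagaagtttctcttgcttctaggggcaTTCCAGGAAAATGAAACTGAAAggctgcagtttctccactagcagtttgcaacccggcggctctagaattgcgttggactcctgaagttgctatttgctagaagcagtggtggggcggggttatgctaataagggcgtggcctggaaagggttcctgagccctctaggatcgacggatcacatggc
Irf1, chr11:53769764-53770063, plus strand: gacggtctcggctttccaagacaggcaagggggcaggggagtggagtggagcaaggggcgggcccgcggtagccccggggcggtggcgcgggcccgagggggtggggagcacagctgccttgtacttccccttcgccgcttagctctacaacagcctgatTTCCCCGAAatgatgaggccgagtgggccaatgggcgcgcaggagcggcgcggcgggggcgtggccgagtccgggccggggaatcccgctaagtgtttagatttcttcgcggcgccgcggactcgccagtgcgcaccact
In Isg15 the run of capitals was 3 overlapping ISRE matches, which began at positions -78, -72 and -66 from the start site. In Bst2 ISRE matches began at -130 and -124, and a GAS match that overlapped them began at -136. The single ISRE match of Ddx58 lay just past the start site, at position 2, and that of Stat2 far upstream, at -222, both on the opposite strand and therefore printed as their reverse complement. The ISRE match of Ifih1 began at 32, the GAS match of Irf1 at -90 and that of Ifi35 at 7. Among other listed genes of the interferon system with a window, 34 of 96 held ISRE letters and 26 of 96 held GAS letters. A match of letters is a description of the window and was not tied to binding.

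**Figure D1:**
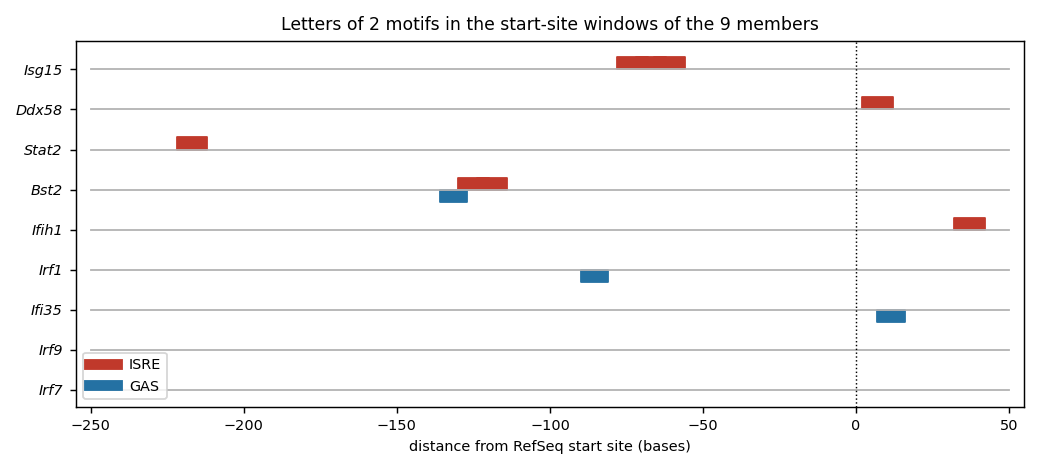
Matches of ISRE letters (red, above each line) and GAS letters (blue, below each line) in the start-site windows of the 9 genes, by distance from the RefSeq start site in bases. Isg15 has 3 overlapping ISRE matches between the start site and -78, and Irf9 and Irf7 have no match.

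The libraries were similar in breadth but not in evenness. Between 14258 and 14901 genes had a value above 0, and summed FPKM ran from 581966 to 691771. Depth relative to the deepest library, read from the smallest steps of low FPKM values, averaged 72.3 ± 0.898% under Bmal1hep-/- ZT4 serum, 84.4 ± 18.1% under WT ZT4 serum, 87.9 ± 11.998% under Bmal1hep-/- ZT16 serum and 76.0 ± 7.69% under WT ZT16 serum (SD, n = 4 each). From the same steps Isg15 rested on about 18.7 to 66.5 fragments per library, Ddx58 on 63.0 to 173, Irf9 on 122 to 279, Stat2 on 163 to 386, Bst2 on 104 to 228, Ifi35 on 214 to 320 and Irf1 on 429 to 738. Ifih1 rested on 5.80 to 27.4 fragments and Irf7 on 0 to 37.2. Short transcripts (under 500 nt) stood high or low as a class against long ones (over 2000 nt): the mean difference on the log2 scale was -0.15, 0.16, -0.24 and 0.30 in Bmal1hep-/- ZT4 replicates 1 to 4, the widest spread of any group. All 12 myotube markers listed were expressed, with Mylpf, a myosin light chain, highest at 2513 FPKM on average. All 6 listed markers of undifferentiated myoblasts were expressed as well, each with a mean of at least 0.5 FPKM, and Top2a was highest at 99.9. Of 10 leukocyte genes 5 (Ptprc, Adgre1, Cd3e, Ms4a1 and Nkg7) were listed at 0 in all 16 libraries. Cd68 alone of the 10 had a mean of at least 0.5 FPKM, at 1.06. In bulk RNA, fewer cells that express a gene and less RNA of it per cell cannot be told apart.

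Isg15 and the ISGF3 subunits Irf9 and Stat2 had higher means under Bmal1hep-/- serum than under WT serum at both times, as did the RNA sensor Ddx58, but none passed adjustment over all tested genes. Isg15 encodes a ubiquitin-like protein that is conjugated to other proteins after interferon exposure. Its FPKM under Bmal1hep-/- ZT4 serum was 3.06, 4.39, 4.27 and 2.89 in replicates 1 to 4, against 2.35, 1.47, 1.66 and 1.77 under WT ZT4 serum. It was 2.79, 2.86, 3.98 and 3.76 under Bmal1hep-/- ZT16 serum, against 1.72, 2.12, 2.13 and 2.67 under WT ZT16 serum. Every library of Bmal1hep-/- serum, at either time, lay above every library of WT serum, by a narrow margin at the edge, 2.79 against 2.67 FPKM.

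The mean of Isg15 was 3.65 ± 0.785 FPKM under Bmal1hep-/- ZT4 serum and 1.81 ± 0.380 under WT ZT4 serum (SD, n = 4 each), a ratio of 2.01. At ZT16 it was 3.35 ± 0.610 FPKM under Bmal1hep-/- serum and 2.16 ± 0.389 under WT serum, a ratio of 1.55. On the log2(FPKM+1) scale, which understates ratios of low genes, the differences were 0.72 ± 0.135 at ZT4 (SE; 95% interval 0.43 to 1.01) and 0.46 ± 0.135 at ZT16 (0.17 to 0.75). At ZT4 limma gave an unadjusted p of 6.22e-05, rank 6 of the 11802 genes, and an adjusted p of 0.122 (Benjamini-Hochberg). At ZT16 the unadjusted p was 0.00352 and limma's adjusted p was 0.228. Without Bmal1hep-/- ZT4 replicate 1 the ZT4 difference was 0.78 with a limma adjusted p of 0.0472, and over all alternatives that p ranged from 0.0472 to 0.363.

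Irf9 is the DNA-binding subunit of ISGF3. Its FPKM was 5.02, 4.57, 5.11 and 4.04 under Bmal1hep-/- ZT4 serum (4.68 ± 0.489), against 3.08, 3.85, 3.08 and 3.53 under WT ZT4 serum (3.39 ± 0.375). Under Bmal1hep-/- ZT16 serum it was 3.12, 3.75, 4.28 and 3.10 (3.56 ± 0.565), against 2.86, 2.75, 2.54 and 2.85 under WT ZT16 serum (2.75 ± 0.152). The groups did not overlap at either time, but the Bmal1hep-/- ZT16 and WT ZT4 libraries covered much the same range. The log2 differences between genotypes were 0.37 ± 0.0938 at ZT4 and 0.27 ± 0.0938 at ZT16 (SE), with limma adjusted p of 0.234 and 0.271. Irf9 shares 4.0% of its exon bases with Rnf31, its neighbour on the same strand, whose mean was 4.63 FPKM, so some of its fragments could be of either gene.

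Stat2 is the transactivating subunit of ISGF3. Its FPKM was 4.92, 3.65, 5.21 and 3.77 under Bmal1hep-/- ZT4 serum (4.39 ± 0.792), against 3.61, 3.16, 3.35 and 3.97 under WT ZT4 serum (3.52 ± 0.349). The ZT4 groups overlapped, since WT replicate 4 lay above Bmal1hep-/- replicates 2 and 4. At ZT16 the Bmal1hep-/- libraries had 4.04, 4.01, 3.70 and 4.17 FPKM (3.98 ± 0.198) and the WT libraries 2.57, 3.66, 3.48 and 3.45 (3.29 ± 0.485), without overlap. The log2 differences were 0.24 ± 0.105 at ZT4 and 0.22 ± 0.105 at ZT16 (SE), with limma adjusted p of 0.447 and 0.391.

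Ddx58 encodes RIG-I, a helicase that senses viral RNA with a 5′ triphosphate. Its FPKM was 2.02, 1.60, 1.90 and 1.79 under Bmal1hep-/- ZT4 serum (1.83 ± 0.180), against 1.37, 1.12, 1.03 and 1.54 under WT ZT4 serum (1.27 ± 0.233), without overlap. At ZT16 it was 2.06, 1.63, 1.99 and 1.205 under Bmal1hep-/- serum (1.72 ± 0.391), against 1.13, 0.996, 1.06 and 1.60 under WT serum (1.196 ± 0.275). Here the groups overlapped, since Bmal1hep-/- replicate 4, at 1.205, lay below WT replicate 4, at 1.60. The ratio of means was 1.44 at both times, and the log2 differences were 0.32 ± 0.116 and 0.31 ± 0.116 (SE), with limma adjusted p of 0.362 at ZT4 and 0.312 at ZT16.

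Bst2 (tetherin), a membrane protein that holds budding virions at the cell surface, was among the more abundant of the set. Among the 7 tested members it had the largest SE on the log2(FPKM+1) scale, which compresses low genes. Its FPKM was 16.6, 17.8, 9.63 and 15.3 under Bmal1hep-/- ZT4 serum (14.8 ± 3.61), against 9.65, 12.1, 12.4 and 13.1 under WT ZT4 serum (11.8 ± 1.496). At ZT16 it was 11.4, 15.7, 13.02 and 13.6 under Bmal1hep-/- serum (13.4 ± 1.75), against 14.2, 11.4, 7.41 and 11.1 under WT serum (11.1 ± 2.80). The groups overlapped at both times, with Bmal1hep-/- ZT4 replicate 3 below every WT ZT4 library. The log2 difference was 0.28 ± 0.177 at each time (SE; 95% interval -0.09 to 0.65 at ZT4 and -0.09 to 0.66 at ZT16), with limma adjusted p of 0.608 at ZT4 and 0.520 at ZT16. Bst2 (792 nt) and Isg15 (756 nt) are the shortest transcripts of the set. With each library's trend over transcript length removed, the log2 difference of Isg15 was 0.65 at ZT4 and 0.56 at ZT16 and that of Bst2 0.21 and 0.39, none with an adjusted p under 0.05 (limma).

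The groups of Irf1 and Ifi35 overlapped at both times. Irf1 is a transcription factor that interferon gamma induces. Its FPKM was 12.3, 15.6, 12.5 and 15.6 under Bmal1hep-/- ZT4 serum (14.006 ± 1.86), against 14.6, 13.7, 14.3 and 16.8 under WT ZT4 serum (14.9 ± 1.35). At ZT16 it was 13.8, 13.6, 14.4 and 18.8 under Bmal1hep-/- serum (15.1 ± 2.45), against 13.9, 16.4, 16.9 and 15.98 under WT serum (15.8 ± 1.33). The groups overlapped widely, and the log2 differences were -0.08 (95% interval -0.31 to 0.14) at ZT4 and -0.07 (-0.29 to 0.16) at ZT16, the second turning to 0.04 when libraries were scaled to the same summed FPKM. Ifi35, which encodes a leucine zipper protein, averaged 11.4 ± 1.58 FPKM under Bmal1hep-/- ZT4 serum and 10.9 ± 0.981 under WT ZT4 serum. It averaged 10.4 ± 0.718 FPKM under Bmal1hep-/- ZT16 serum and 10.9 ± 1.35 under WT ZT16 serum, with all 16 libraries between 9.10 and 13.5 FPKM. Its log2 differences were 0.06 (95% interval -0.15 to 0.26) and -0.05 (-0.25 to 0.16), and both changed sign under that scaling, to -0.01 and 0.05. Both genes overlap a predicted gene on the opposite strand, over 3.0% of the exon bases of Irf1 and 17.4% of those of Ifi35 (GENCODE M21). The sources used here do not give whether the counting used strand.

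**Figure D2:**
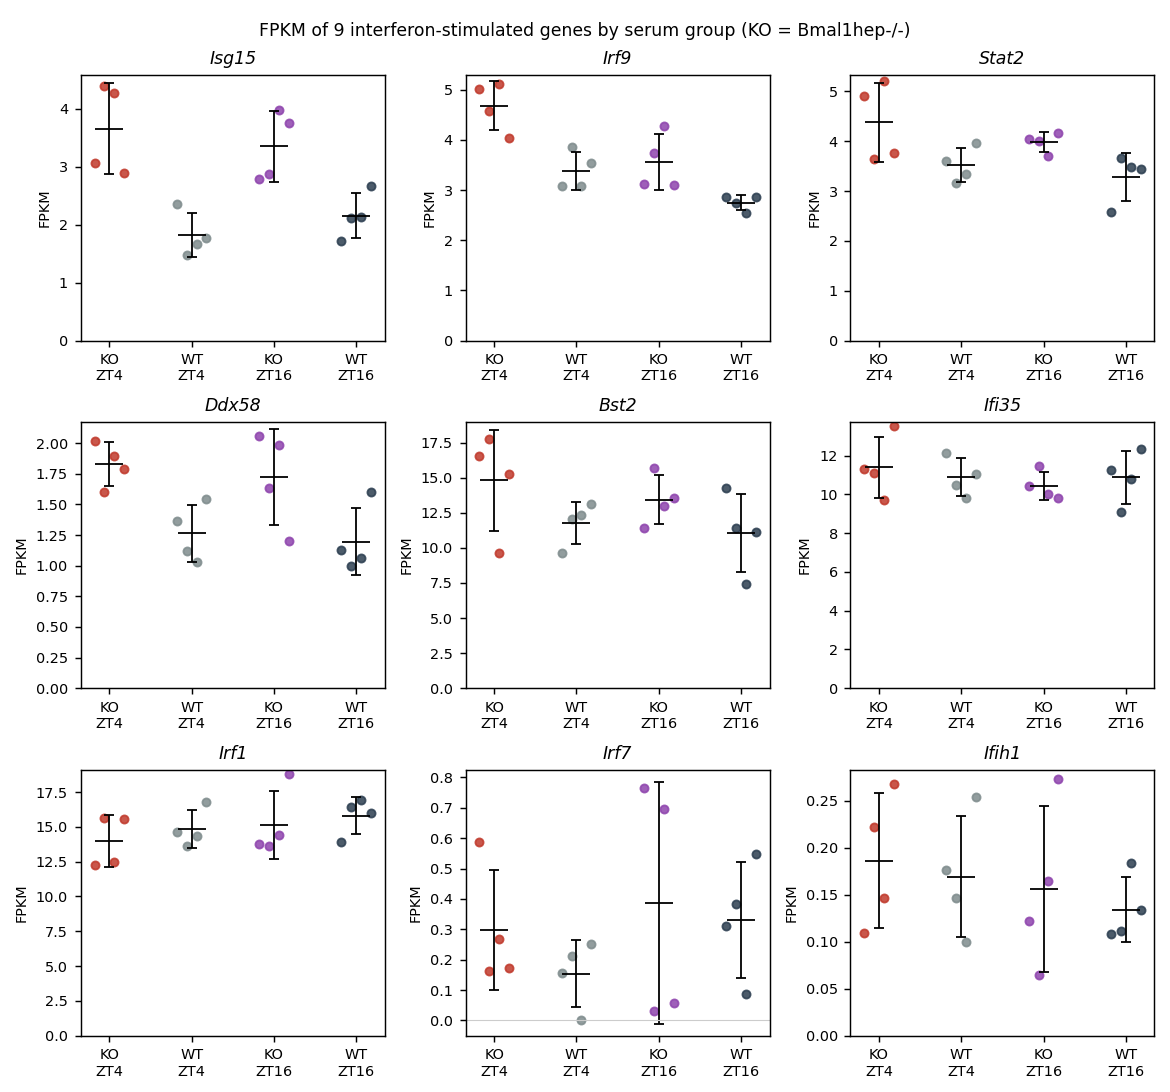
FPKM of the 9 genes in each library (points, replicates 1 to 4 from left to right) with group mean and SD (black), by serum group, KO standing for Bmal1hep-/-. The Isg15 points of both KO groups lie at 2.79 FPKM or above and those of both WT groups at 2.67 or below, while the Irf1 and Ifi35 groups overlap.

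Ifih1 and Irf7 were too low for a comparison with any precision. Ifih1, which encodes the sensor of long double-stranded RNA MDA5, ran from 0.0643 to 0.272 FPKM over the 16 libraries. It averaged 0.186 ± 0.0716 FPKM under Bmal1hep-/- ZT4 serum, 0.169 ± 0.0643 under WT ZT4 serum, 0.156 ± 0.0879 under Bmal1hep-/- ZT16 serum and 0.134 ± 0.0347 under WT ZT16 serum. Irf7, the factor that amplifies interferon alpha transcription, was 0.586, 0.163, 0.269 and 0.172 FPKM under Bmal1hep-/- ZT4 serum, against 0.156, 0.211, 0 and 0.251 under WT ZT4 serum. It was 0.766, 0.0307, 0.696 and 0.0575 FPKM under Bmal1hep-/- ZT16 serum, against 0.311, 0.382, 0.0859 and 0.547 under WT ZT16 serum. Irf7 was therefore split within Bmal1hep-/- ZT16 serum, with replicates 1 and 3 the highest of all libraries and replicates 2 and 4 among the lowest. Exact permutation tests on FPKM, 2-sided over 70 assignments, gave p from 0.171 to 0.8286 for both genes in the 4 pairwise comparisons, and 0.8286 for each after Benjamini-Hochberg adjustment over the 8 tests. The smallest p that this design allows is 0.0286. Irf7 lies within the span of Phrf1 on the opposite strand but shares no exon bases with it.

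Read as a group at ZT4, 0 of the 7 tested genes passed an adjusted p of 0.05 by limma, where 0.00847% of all tested genes passed (1 gene, the snoRNA host Snhg6). An unadjusted p under 0.05 with a higher mean under Bmal1hep-/- serum was found for 4 of the 7 (Isg15, Irf9, Ddx58 and Stat2), against 6.21% of all genes, and 0 of the 7 had one with a lower mean, against 4.07%. Groups without overlap, Bmal1hep-/- above WT, were found for 3 of the 7 (Isg15, Irf9 and Ddx58), against 2.3% of all genes, and for 0 with Bmal1hep-/- below WT, against 1.65%. The median log2 difference was 0.28 over the 7 and -0.0078 over all tested genes. At ZT16, 0 of the 7 passed, where 0.0508% of all genes did (6 genes). The same 4 genes had an unadjusted p under 0.05 with a higher mean, against 6.17% of all genes, and 0 with a lower mean, against 6.59%. Bmal1hep-/- libraries lay above WT without overlap for 3 of the 7 (Isg15, Irf9 and Stat2), against 5.96% of all genes, and below for 0, against 5.91%. The median was 0.27 over the 7 and 0.0052 over all. The genes of the set were chosen with earlier results of these data known, and these counts describe them without standing as independent evidence.

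Isg15 and Irf9 were among the 25 genes, 0.212% of those tested, whose Bmal1hep-/- libraries lay above the WT libraries at both times. Only 4 genes, 0.0339%, had all 8 Bmal1hep-/- libraries above all 8 WT libraries, Isg15 and, named after their values were seen, Edem2, Emilin1 and Rtn4ip1, while 0.0254% had the reverse. In a comparison averaged over both times, added after these values had been seen, Isg15 differed by 0.59 ± 0.0958 (SE), with the smallest unadjusted p of the 11802 genes (1.17e-05) and a limma adjusted p of 0.108. Irf9 differed by 0.32 ± 0.0663, rank 12, with a limma adjusted p of 0.121. Ddx58 differed by 0.31 (rank 107, limma adjusted p of 0.156), Stat2 by 0.23 (0.230) and Bst2 by 0.28 (0.390). No gene passed in that comparison, 0.00% of those tested, while 1396 had an unadjusted p under 0.05. Of the 7 tested members 5 had one with a higher mean, against 7.06% of all genes, and 0 with a lower mean, against 4.77%. With libraries weighted by their spread, Isg15 and Irf9 did pass, at log2 differences of 0.63 and 0.34 and a limma adjusted p of 0.0347 each. Isg15 also passed without Bmal1hep-/- ZT4 replicate 4 (0.63, limma adjusted p of 0.0156) or WT ZT16 replicate 4 (0.63, 0.0353), and Irf9 without the first of these (0.35, 0.0169). Over all alternatives limma's adjusted p ran from 0.0156 to 0.234 for Isg15 and from 0.0169 to 0.259 for Irf9. The labels call the libraries biological replicates without saying whether cultures or sera were separate, so p-values measure the spread between these libraries, which may be technical.

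**Figure D3:**
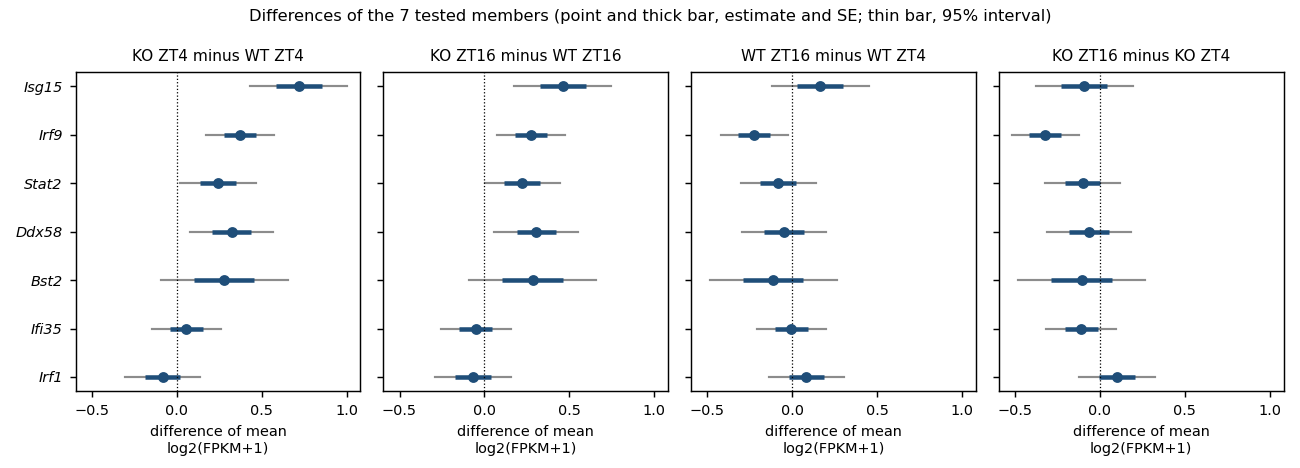
Differences of the 7 tested genes on the log2(FPKM+1) scale in the 4 pairwise comparisons (point and thick bar, estimate and SE, n = 4 libraries per group; thin bar, 95% interval), KO standing for Bmal1hep-/-. Isg15 lies farthest from 0 in both comparisons of genotype, at 0.72 and 0.46, and Irf9 in both comparisons of time, at -0.22 and -0.32.

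For Isg15, Ddx58 and Stat2 the estimated differences between times of bleeding were smaller than those between genotypes, a contrast of sizes that was not itself tested. Under Bmal1hep-/- serum, Irf9 averaged 3.56 FPKM at ZT16 and 4.68 at ZT4, a log2 difference of -0.32 ± 0.0938 (SE) with an unadjusted p of 0.0033 and a limma adjusted p of 0.244. The WT libraries differed the same way, with 2.75 FPKM at ZT16 and 3.39 at ZT4, a log2 difference of -0.22 ± 0.0938 and a limma adjusted p of 0.999. Here the WT groups did not overlap, ZT16 below ZT4, against 1.8% of all genes, and 0 of the 7 had ZT16 above ZT4, against 2.54%. Under Bmal1hep-/- serum 0 of the 7 separated in either direction, against 2.47% of all genes with ZT16 above and 2.52% with ZT16 below. Irf9 was the single tested member with an unadjusted p under 0.05 for time, lower at ZT16 under either serum, against 5.78% of all genes under Bmal1hep-/- serum and 1.61% under WT serum. The other direction held for 0 of the 7, against 6.11% of all genes under Bmal1hep-/- serum and 2.36% under WT serum. No member passed adjustment for time, where 0.0169% of all genes passed under Bmal1hep-/- serum (Snhg6 and Tmem208) and 0.00% under WT serum (468 genes at an unadjusted p under 0.05). Isg15 differed between ZT16 and ZT4 by -0.09 under Bmal1hep-/- serum and by 0.17 under WT serum, both within a 95% interval that included 0.

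Whether the genotype difference itself depended on time was tested by the interaction, the ZT16 minus ZT4 difference under Bmal1hep-/- serum minus that under WT serum. For Isg15 it was -0.26 ± 0.192 (SE; 95% interval -0.66 to 0.15), with a limma adjusted p of 0.683. For Irf9 it was -0.10 (-0.38 to 0.18), and for Ddx58 and Stat2 -0.02 each (-0.37 to 0.33 and -0.33 to 0.29), with adjusted p of 0.842, 0.983 and 0.979. None of the 7 passed, where 0.0932% of all genes did (11 genes). At an unadjusted p under 0.05 there were 0 positive and 0 negative among the 7, against 4.4% and 5.85% of all genes. The 4 pairwise comparisons and the interaction share libraries, so their values are not independent of each other.

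Over the 16 libraries the values of Isg15, Irf9, Ddx58 and Stat2 went together, and Irf1 did not go with them. Pearson's r on log2(FPKM+1) was 0.58 between Isg15 and Irf9, 0.65 between Isg15 and Ddx58, 0.62 between Isg15 and Stat2 and 0.68 between Irf9 and Ddx58 (n = 16 libraries). With Irf1 it was -0.56 for Irf9, -0.45 for Ddx58, -0.23 for Stat2 and -0.04 for Isg15. With the group means removed the first 4 values became 0.11, 0.09, 0.25 and 0.34, so that within a serum group they were weak. Those with Irf1 became -0.51 for Irf9, -0.37 for Ddx58, 0.0067 for Stat2 and 0.33 for Isg15. Within groups Isg15 had a higher r with Irf1 than with Irf9, Ddx58 or Stat2, but differences between these r were not tested. The points share libraries and their depth. The mean of the 7 tested genes, each in SDs from its own mean, was 0.73, 0.74, 0.37 and 0.74 in Bmal1hep-/- ZT4 replicates 1 to 4, against -0.23, -0.63, -0.74 and 0.13 in WT ZT4. At ZT16 it was -0.0031, 0.30, 0.35 and 0.26 under Bmal1hep-/- serum, against -0.71, -0.65, -0.70 and 0.04 under WT serum. The highest WT libraries were WT ZT4 replicate 4 and WT ZT16 replicate 4, which share a title number but were not taken as a pair. The value of WT ZT16 replicate 4 was above that of Bmal1hep-/- ZT16 replicate 1. The tested genes whose values followed this mean most closely over the 16 libraries were Creld1 (r = 0.90), Cdk2ap2 (0.89), Ankrd2 (0.87), Tbc1d16 (0.86), Kdelr1 (0.86), Fkbp7, Cdk5rap3 and Dll1 (0.85 each). None of these 8 is a listed gene of the interferon system. They were picked as the highest r among tested genes outside the set, predicted genes aside. Group means were not removed for them, so differences shared between serum groups enter these r. Cdk2ap2 and Cdk5rap3, for example, had ranks 2 and 3 in the genotype comparison averaged over both times.

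**Figure D4:**
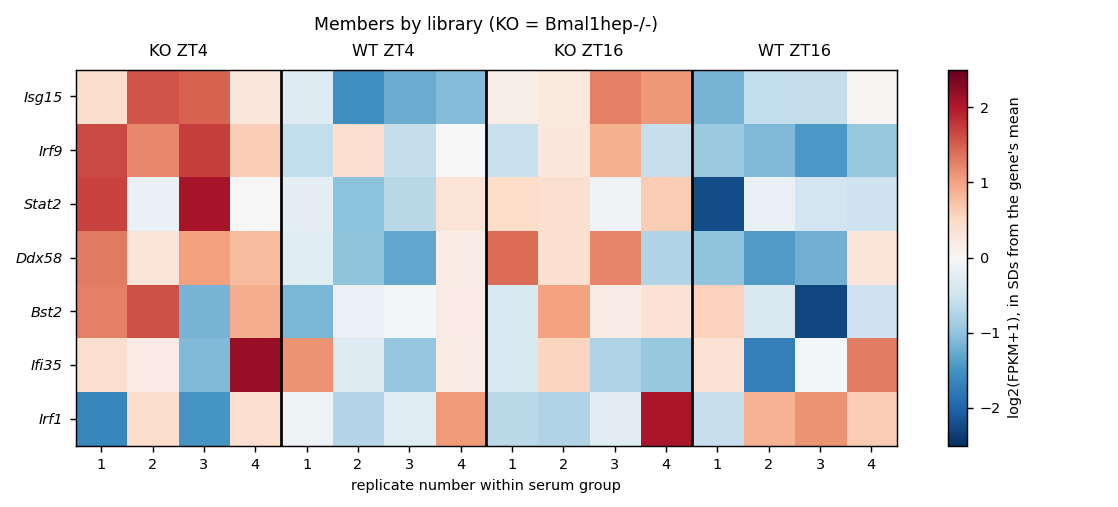
Values of the 7 tested genes in each of the 16 libraries, as log2(FPKM+1) in SDs from the gene's mean (red above, blue below), with libraries in columns by serum group, KO standing for Bmal1hep-/-. Isg15 is above its mean in all 8 KO libraries, whereas Irf1 is lowest in KO ZT4 replicates 1 and 3 and highest in KO ZT16 replicate 4.

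The rest of the interferon system was read from gene lists. Interferon genes were at or near 0: of 12 listed interferon genes 11 were listed at 0 in all 16 libraries, Ifnb1 among them, and the remaining one, Ifng, had a mean of 0.0170 FPKM. None was tested. Of 18 genes of the receptors and of JAK-STAT signalling 16 were tested and 0 passed in any of the comparisons. At ZT4 0 of the 16 had an unadjusted p under 0.05 in either direction, against 6.21% of all genes with a higher and 4.07% with a lower mean, shares at which 16 genes would hold few. At ZT16 the count was likewise 0, against 6.17% and 6.59%. The median log2 difference of the 16 was -0.05 at ZT4 and -0.0063 at ZT16. The type I receptor chain Ifnar2 averaged 24.0 ± 0.362 FPKM under Bmal1hep-/- ZT4 serum and 21.3 ± 3.09 under WT ZT4 serum, and 21.001 ± 1.33 under Bmal1hep-/- ZT16 serum and 22.4 ± 1.99 under WT ZT16 serum. The kinase Jak1 averaged 28.4 ± 3.08 FPKM under Bmal1hep-/- ZT4 serum and 29.4 ± 0.507 under WT ZT4 serum, and 31.1 ± 1.53 under Bmal1hep-/- ZT16 serum and 29.7 ± 1.08 under WT ZT16 serum. Stat3, which carries interleukin-6 family signals, averaged 38.9 ± 3.40 FPKM under Bmal1hep-/- ZT4 serum and 40.5 ± 2.64 under WT ZT4 serum. The log2 differences at ZT4 were -0.18 for Jak2, -0.08 for the interferon gamma receptor chain Ifngr1 and -0.05 for Ptpn1, a phosphatase of JAK kinases, with limma adjusted p of 0.533, 0.632 and 0.821. At ZT16 Jak2 and Ifngr1 had the opposite sign, at 0.08 and 0.09, and Ptpn1 was at -0.11, with limma adjusted p of 0.734, 0.493 and 0.484. Stat3 had log2 differences of -0.06 at ZT4 and -0.07 at ZT16.

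Some strongly inducible interferon targets, looked up after their values had been seen, were near 0 under every serum: the mean over the 16 libraries was 0.213 FPKM for Ifit1, 0.227 for Ifit3, 0.0262 for Usp18, 0.0116 for Oas1a, 0.0034 for Mx1, 0.0029 for Rsad2 and 0.150 for Cxcl10.

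Of 26 listed genes of RNA and DNA sensing 24 were in the table and 18 were tested, and 0 passed in any comparison. At ZT4, 3 had an unadjusted p under 0.05 with a higher mean under Bmal1hep-/- serum (Ifi204, Ticam1 and Trim25) and 1 with a lower mean (Mb21d1, the DNA sensor cGAS), against 6.21% and 4.07% of all genes, and the median log2 difference was 0.05. At ZT16 these counts were 3 (Eif2ak2, Ticam1 and Tlr4) and 0, against 6.17% and 6.59% of all genes, with a median of 0.03. Ticam1 (TRIF), the adaptor of Toll-like receptor 3, averaged 5.71 ± 1.28 FPKM under Bmal1hep-/- ZT4 serum and 4.20 ± 0.328 under WT ZT4 serum, and 5.09 ± 0.704 under Bmal1hep-/- ZT16 serum and 4.00 ± 0.372 under WT ZT16 serum. Its log2 differences of 0.35 and 0.28 had limma adjusted p of 0.339 and 0.353. Eif2ak2, the kinase PKR that halts translation on double-stranded RNA, averaged 6.67 ± 0.288 FPKM under Bmal1hep-/- ZT16 serum and 5.43 ± 0.430 under WT ZT16 serum, a log2 difference of 0.26 (limma adjusted p of 0.345), while at ZT4 the difference was 0.10 (0.796). Myd88, the adaptor of most other Toll-like receptors, averaged 13.7 ± 1.51 FPKM under Bmal1hep-/- ZT4 serum and 13.3 ± 0.885 under WT ZT4 serum. Irf3, the factor that switches on Ifnb1 after sensing, averaged 18.3 ± 1.58 FPKM under Bmal1hep-/- ZT4 serum and 17.5 ± 1.46 under WT ZT4 serum, and Ifi204, a DNA sensor of the Ifi200 family, averaged 13.8 ± 1.47 FPKM under Bmal1hep-/- ZT4 serum and 11.6 ± 0.621 under WT ZT4 serum. The log2 differences at ZT4 were 0.04 for Myd88, 0.06 for Irf3 and 0.22 for Ifi204, and at ZT16 they were 0.06, -0.10 and 0.03 for the same genes.

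Of 50 other interferon-stimulated effectors 49 were in the table and 25 were tested, and 0 passed in any comparison. At ZT4, 2 had an unadjusted p under 0.05 with a higher mean under Bmal1hep-/- serum (Isg20 and Ifi27) and 1 with a lower mean (Samhd1), near the 6.21% and 4.07% of all genes. At ZT16 these counts were 1 (Helz2) and 2 (Ifitm3 and Ifitm2), against 6.17% and 6.59% of all genes. The median log2 differences were 0.03 and 0.06. Isg20, an exonuclease of single-stranded RNA, averaged 4.65 ± 1.91 FPKM under Bmal1hep-/- ZT4 serum and 2.41 ± 0.549 under WT ZT4 serum, a log2 difference of 0.68 ± 0.184 (SE; limma adjusted p of 0.238), and at ZT16 its difference was 0.25 (0.595). Ifi27 averaged 71.7 ± 11.4 FPKM under Bmal1hep-/- ZT4 serum and 55.6 ± 5.18 under WT ZT4 serum, a log2 difference of 0.35 (limma adjusted p of 0.305). At ZT16 Ifi27 averaged 59.1 ± 6.32 FPKM under Bmal1hep-/- serum and 57.2 ± 5.995 under WT serum, a log2 difference of 0.05 (limma adjusted p of 0.886). Samhd1, which hydrolyses deoxynucleotides, averaged 17.6 ± 0.833 FPKM under Bmal1hep-/- ZT4 serum and 19.2 ± 1.01 under WT ZT4 serum, and Pml, the organiser of nuclear bodies, averaged 11.3 ± 0.978 FPKM under Bmal1hep-/- ZT4 serum and 11.504 ± 0.993 under WT ZT4 serum. Both had the opposite sign at ZT16, with log2 differences of -0.12 at ZT4 and 0.06 at ZT16 for Samhd1 and of -0.02 and 0.14 for Pml. Ifitm3 and Ifitm2 are abundant membrane proteins that block virus entry. At ZT16 Ifitm3 averaged 348 ± 29.8 FPKM under Bmal1hep-/- serum and 428 ± 37.2 under WT serum, a log2 difference of -0.30 (limma adjusted p of 0.365). Ifitm2 averaged 231 ± 11.1 FPKM under Bmal1hep-/- ZT16 serum and 265 ± 12.96 under WT ZT16 serum, a log2 difference of -0.20 (limma adjusted p of 0.350). At ZT4 the differences were 0.02 for Ifitm3 and 0.03 for Ifitm2. The Ifitm genes are close paralogs, and the sources used here do not give how shared fragments were assigned.

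Of 21 genes in a list of GTPases and chemokines typical of interferon gamma, 5 were tested and 0 passed in any comparison. Their medians were -0.02 at ZT4 and -0.01 at ZT16. The list also holds Socs1, which is neither and was counted among the receptor and JAK-STAT genes as well. The GTPase Irgm1 averaged 7.49 ± 0.730 FPKM under Bmal1hep-/- ZT4 serum and 6.33 ± 0.645 under WT ZT4 serum, a log2 difference of 0.21 (limma adjusted p of 0.429), the 1 of the 5 with an unadjusted p under 0.05. At ZT16 Irgm1 averaged 6.62 ± 0.557 FPKM under Bmal1hep-/- serum and 6.70 ± 0.687 under WT serum, a log2 difference of -0.01 (limma adjusted p of 0.962). The feedback inhibitor Socs1 averaged 10.1 ± 3.07 FPKM under Bmal1hep-/- ZT4 serum and 10.3 ± 1.52 under WT ZT4 serum. The chemokine Ccl5 varied widely, with 1.90 ± 0.787 FPKM under Bmal1hep-/- ZT4 serum and 3.61 ± 2.47 under WT ZT4 serum, and the GTPases Ifi47 and Igtp had log2 differences of 0.04 and -0.02 at ZT4 and of 0.0069 and 0.14 at ZT16. Ccl5 differed by -0.59 at ZT4 and -0.38 at ZT16 (limma adjusted p of 0.587 and 0.669). At ZT16 Socs1 averaged 10.2 ± 2.28 FPKM under Bmal1hep-/- serum and 10.4 ± 1.57 under WT serum.

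**Figure D5:**
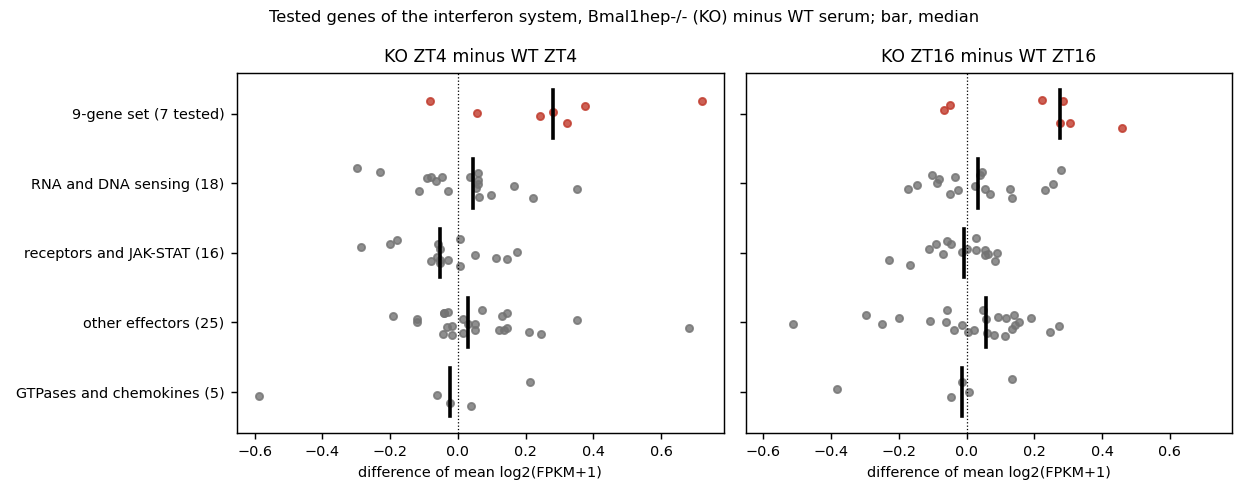
Log2(FPKM+1) differences, Bmal1hep-/- (KO) minus WT serum, at ZT4 (left) and ZT16 (right) for tested genes, with the median as a bar. The 9-gene set is red and 4 lists of the interferon system are grey, with 1 point per gene in each list. Socs1 is in the list of receptors and in that of GTPases and is drawn in both. Vertical scatter has no meaning. The median of the 9-gene set is 0.28 at ZT4 and 0.27 at ZT16, and those of the other lists lie between -0.05 and 0.06, the set having been chosen with results of these data known.

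Markers of other cells were looked at beside these values. The summed FPKM of 10 leukocyte genes was 1.14 to 1.68 under Bmal1hep-/- ZT4 serum, 0.625 to 2.36 under WT ZT4 serum, 0.635 to 1.62 under Bmal1hep-/- ZT16 serum and 0.7995 to 1.96 under WT ZT16 serum, so that the groups overlapped. Cd68 was the highest of them, at 1.06 FPKM. The summed FPKM of 6 genes of undifferentiated myoblasts was 257 to 325 under Bmal1hep-/- ZT4 serum, 269 to 316 under WT ZT4 serum, 262 to 300 under Bmal1hep-/- ZT16 serum and 297 to 405 under WT ZT16 serum. That of 12 myotube genes was 5534 to 8351 under Bmal1hep-/- ZT4 serum, 6086 to 7121 under WT ZT4 serum, 6157 to 6954 under Bmal1hep-/- ZT16 serum and 6515 to 8143 under WT ZT16 serum. The part of any of these in the values of the interferon-stimulated genes was not tested.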

How the data were processed

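The authors deposited 1 table of FPKM per gene for the 16 libraries. Per the labels' protocols, libraries were made from poly-T selected RNA with random hexamer primed cDNA. Tools credited in the submitters' processing notes are FastQC 0.11.8 and STAR (without a version), and builds mm10 and GRCm39. What computed FPKM, and on which annotation, is not given in the sources. FPKM holds no counts, so fragments per gene were only estimated, from the smallest steps of low values and GENCODE M21 transcript lengths, and cover counting error only. Columns were matched to samples by library name, and for 7 of them the replicate number in the column name differs from that in the title, which is the one used here.

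Genes with a mean of at least 0.5 FPKM were tested (11802). Values were log2(FPKM+1), a pseudocount of 1, with no further scaling. A single limma fit (limma 3.58.1, R 4.3.3) covered all groups (trend, 12 residual degrees of freedom), and p-values were adjusted over all tested genes by Benjamini-Hochberg, with a threshold of 0.05. The 2 members under the filter were compared by exact permutation of FPKM. The fit was tested on simulated data. Of the 24346 rows, 27 had symbols turned into dates, of which 19 were tested, and these were never named. Promoter windows are those of RefSeq (GRCm38.p6). Python 3.11.15, pandas 2.3.3 and matplotlib 3.10.9 were used for tabulation and plotting.

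The members and gene lists were chosen with earlier results of these data known. From each list the text names genes that passed, up to 4 with the smallest p and up to 3 with the highest FPKM among those tested, and the 8 genes most like the mean of the tested members. Arntl was read as the deleted gene. Trim25, Mb21d1, Tlr4, Helz2, Snhg6, Tmem208, Edem2, Emilin1, Rtn4ip1 and the inducible targets Usp18, Ifit1, Ifit3, Oas1a, Mx1, Rsad2 and Cxcl10 were chosen after their values were seen. Alternative settings tried were a pseudocount of 0.1, no filter or a filter at a mean of 2 FPKM, library scaling by summed FPKM or by median ratio, weights per library, only the groups compared, the replicate number as a block, removal of a trend with transcript length (a spline of 5 degrees of freedom) and leaving out each library. The comparison averaged over times and the block by column-name numbers were chosen after seeing the data. Reads were not analysed here.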

Additional observations from a re-analysis of the deposited data

Results flagged for a closer look

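Among 36 sets of 4 libraries (9 genes in 4 groups), 1 held a library far from the other 3: Irf1 in Bmal1hep-/- ZT16 replicate 4 was 18.8 FPKM, while the other 3 libraries of that group lay between 13.6 and 14.4. Its gap to the nearest library was 0.853 of the group's whole range, above Dixon's 95% limit for 4 values. Chance alone flags about 1 in 20 such sets.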

How the results depend on the processing

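No member passed in the 4 pairwise comparisons or the interaction under any alternative that kept all libraries, and the genotype differences of Isg15, Irf9, Ddx58, Stat2 and Bst2 kept their sign in each. Isg15, Ifih1 and Irf7 rest on few fragments, which limits precision. Where a count or sign moved, the cause was not tested.

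At ZT4 the genes called (1) became 0 with no filter and with the same summed FPKM, 2 at a mean of 2 FPKM, and 3 with library weights, with the length trend removed and with the block by column-name numbers. Leaving out a library gave 0 to 16 genes and 0 to 1 member. At ZT16 the 6 became 0 with no filter, 2 by median ratio, 255 with weights, 132 with only the groups compared, 14 by length, and 0 to 27 without a library. For WT over time the 0 became 1 at 2 FPKM and with the same sum, 7 with weights, 18 with only the groups compared, 2 by length, and 0 to 6 without a library. For Bmal1hep-/- over time the 2 became 0 with no filter, the same sum or only the groups compared, 13 with weights, and 0 to 59 without a library, 59 being without Bmal1hep-/- ZT4 replicate 1. For the interaction the 11 became 3 with no filter, 23 at 2 FPKM, 17 with the same sum, 127 with weights, and 6 to 109 without a library. Averaged over times the 0 became 103 genes and 2 members with weights, and 0 to 174 genes and 0 to 2 members without a library, 174 being without Bmal1hep-/- ZT4 replicate 4.

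Libraries with the same title number did not deviate together (24 pairs, median r 0.001, from -0.218 to 0.255, 4 over 0.1, with 5 of 16 libraries closest to one of their own number). With the numbers in the column names the median was 0.059 (-0.093 to 0.335, 8 of 24 pairs over 0.1, against -0.008 and 10 of 72 pairs for different numbers), and 7 of 16 libraries were closest to one of their own number, a hint from the data and not the design. Neither set of numbers was taken as pairing the samples, since the labels give no shared animal, litter, batch or day. Not every pair was over 0.1, which does not exclude pairing. With the replicate block the genes called were 1 at ZT4, 0 at ZT16, 0 for each comparison over time and 6 for the interaction, and with the block by column-name numbers 3 at ZT16. Isg15 at ZT4 kept 0.72 under the replicate block, with a limma adjusted p of 0.273. Under the block by column-name numbers Isg15 averaged over times kept 0.59, with a limma adjusted p of 0.0531 against 0.108 without it.

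Signs turned for small differences. With the same summed FPKM, which shifts the median of all genes by -0.07 at ZT4, 0.10 at ZT16 and 0.17 in the interaction, Ifi35 was -0.01 at ZT4 and 0.05 at ZT16, Irf1 0.04 at ZT16, and in the interaction Irf9 was 0.04, Ddx58 0.09, Stat2 0.13 and Ifi35 0.07. With the length trend removed, Ifi35 was 0.03 at ZT16 and 0.03 in the interaction, and Isg15 0.01 over time under Bmal1hep-/- serum. With weights the interaction was 0.04 for Ddx58 and Stat2, -0.07 for Irf1 and -0.10 for Bst2, and Ifi35 averaged over times was -0.01. By median ratio the interaction of Bst2 was -0.0017.

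Leaving out 1 library at a time turned other small differences. The range was -0.00959 to 0.0455 FPKM for Ifih1 and -0.02 to 0.12 log2 for Ifi35 at ZT4. At ZT16 it was -0.0171 to 0.0523 FPKM for Ifih1, -0.0702 to 0.175 FPKM for Irf7 and -0.13 to 0.01 log2 for Ifi35. For WT over time it was -0.13 to 0.01 for Ddx58, -0.12 to 0.0036 for Stat2, -0.23 to 0.05 for Bst2 and -0.06 to 0.07 for Ifi35. For Bmal1hep-/- over time it was -0.12 to 0.03 for Ddx58, -0.00021 to 0.15 for Irf1, -0.0692 to 0.000137 FPKM for Ifih1 and -0.036 to 0.209 FPKM for Irf7. In the interaction it was -0.08 to 0.08 for Ddx58, -0.11 to 0.05 for Stat2, -0.08 to 0.07 for Irf1 and -0.18 to 0.13 for Bst2, and averaged over times -0.04 to 0.04 for Ifi35. Irf7 over time in WT had an exact permutation p of 0.0286, unadjusted, without WT ZT16 replicate 3, the lowest library of its group for Irf7. That is the smallest p possible with that library left out, for a gene at 0 to 0.547 FPKM in the WT libraries.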
